A study of Mus musculus with 6 samples.

Results

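The metabolic and xenobiotic receptors described here are 10 genes: Ppara, Ppard and Pparg, the peroxisome proliferator-activated receptors; Rxra, the retinoid X receptor that pairs with many of the others; Nr1i2 (PXR) and Nr1i3 (CAR), the sensors of drugs and bile acids; Nr1h3, the liver X receptor alpha; Nr3c1, the glucocorticoid receptor; Thrb, a thyroid hormone receptor; and Ahr, the aryl hydrocarbon receptor. They were chosen by gene symbol, with earlier results of these data known, from 18193 genes with their own probe set on the array. Every probe set annotated to exactly 1 of these symbols was taken, which gave 22 of the 45037 probe sets tested; 1 further probe set, annotated to Ppard together with 1810013A23Rik, was left out. A probe set is a group of short oligonucleotides on the array that together give 1 value for a transcript.

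Liver RNA came from 3 mutants of genotype B6.Alb/cre,Pdss2loxP/loxP, aged 176, 178 and 224 days (mutants 1, 2 and 3), and from 3 controls of genotype B6.Pdss2loxP/loxP, aged 209, 213 and 140 days (controls 1, 2 and 3). All 6 mice were male, each had its own array, mutants and controls were caged apart, and food was taken away 3 h before death. Pdss2 is needed to make the isoprenoid tail of coenzyme Q, the electron carrier of the respiratory chain. The cre recombinase was driven by the albumin promoter, which is active mainly in hepatocytes, so whole liver also holds cells in which Pdss2 may be intact. The controls carried the same floxed Pdss2 alleles without cre, although their titles call them wildtype, and 1 control, control 1, is labelled as the concurrent control of mutant 3. The question was which metabolic pathways differ in liver downstream of the mutation.

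Nuclear receptors are transcription factors that are switched by small lipophilic molecules, among them fatty acids, oxysterols, bile acids, drugs and hormones. PPARs, PXR, CAR, LXR and thyroid hormone receptors bind DNA as pairs with a retinoid X receptor, whereas the glucocorticoid receptor waits in the cytoplasm on heat shock proteins and acts mainly with another copy of itself. Ahr belongs to a different family of ligand-activated factors and pairs with Arnt to switch on genes that metabolize planar aromatic compounds.

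Levels are log2 intensities per mouse, and differences are mutant minus control on the same scale, so that 1 unit stands for a doubling. Differences were tested with limma over all 45037 probe sets, and a probe set is called where its Benjamini-Hochberg adjusted p was under 0.05; the exact permutation p over the 20 assignments of mice to groups cannot go below 0.1 with 3 mice against 3. In whole liver, fewer cells of a type and less RNA per cell cannot be told apart. No detection calls came with the values, the number of arrays limits the precision, and levels of different probe sets cannot be set against each other.

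The arrays differed in ways that bear on every value below. Array medians ran from 6.12 to 6.24 in the mutants and from 5.92 to 6.12 in the controls, and the median difference over all probe sets was 0.17, so differences are also given after each array was centred on its median where this moved a call. The hybridization controls bio and cre, which are added in fixed amounts, were higher in the mutants on 18 of 18 probe sets, by 0.32 to 1.82 log2 units with no overlap. The 3′ minus 5′ difference of the Gapdh control probe sets, a sign of RNA integrity and labelling, was 0.45, -1.06 and -1.78 in mutants 1, 2 and 3 and 2.31, 2.02 and 2.30 in the controls (exact permutation p = 0.1), while that of Actb differed by 0.07 (exact permutation p = 0.8). The part of these array differences in the results for the receptors was not tested. Subunits of oxidative phosphorylation had a median difference of -0.95 in the libraries labelled mutant, with 3 of 23 measured genes positive. The study describes this pathway in the opposite direction, from gene set enrichment analysis of a KEGG pathway. The value of -0.95 is instead a median over listed subunits on their brightest probe sets, without a set test. The measures and gene sets are thus unlike, and the cause of the difference was not tested.

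Pdss2, the targeted gene, was 6.94, 6.88 and 7.05 in the mutants and 7.46, 7.47 and 7.56 in the controls on its brightest probe set, 1444085_at. All mutants lay below all controls, at 68.7% of the control level (-0.54 ± 0.18 (SE, n = 3 per group), limma adjusted p = 0.118). Its other probe sets, 1459473_at and 1430723_at, gave differences of 0.35 (limma adjusted p = 0.58) and 0.40 (limma adjusted p = 0.393) with overlapping groups. Whether any of these probe sets reads the deleted stretch of the gene is unknown, so they do not check the deletion.

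Among the receptors, Pparg fell in the libraries labelled mutant to a level 3.73-fold below that of the controls, and it was the only one of the 10 genes with a called probe set. Of the 22 probe sets 0 were called higher, against a background of 1.25% of all probe sets, and 1 was called lower, against 0.746%. An unadjusted p under 0.05 was reached by 10 of the 22, 5 higher and 5 lower, against 25.2% of all probe sets. The groups did not overlap on 9 probe sets from 6 genes: all mutants lay above all controls on 4, where the background was 21.2%, and below on 5, where it was 10.7%. The median difference over the 22 was -0.078, beside 0.17 over all probe sets, with 10 positive and 12 negative. Across these probe sets the 95% interval reached a median of 0.61 log2 units to each side of the difference.

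**Figure D1:**
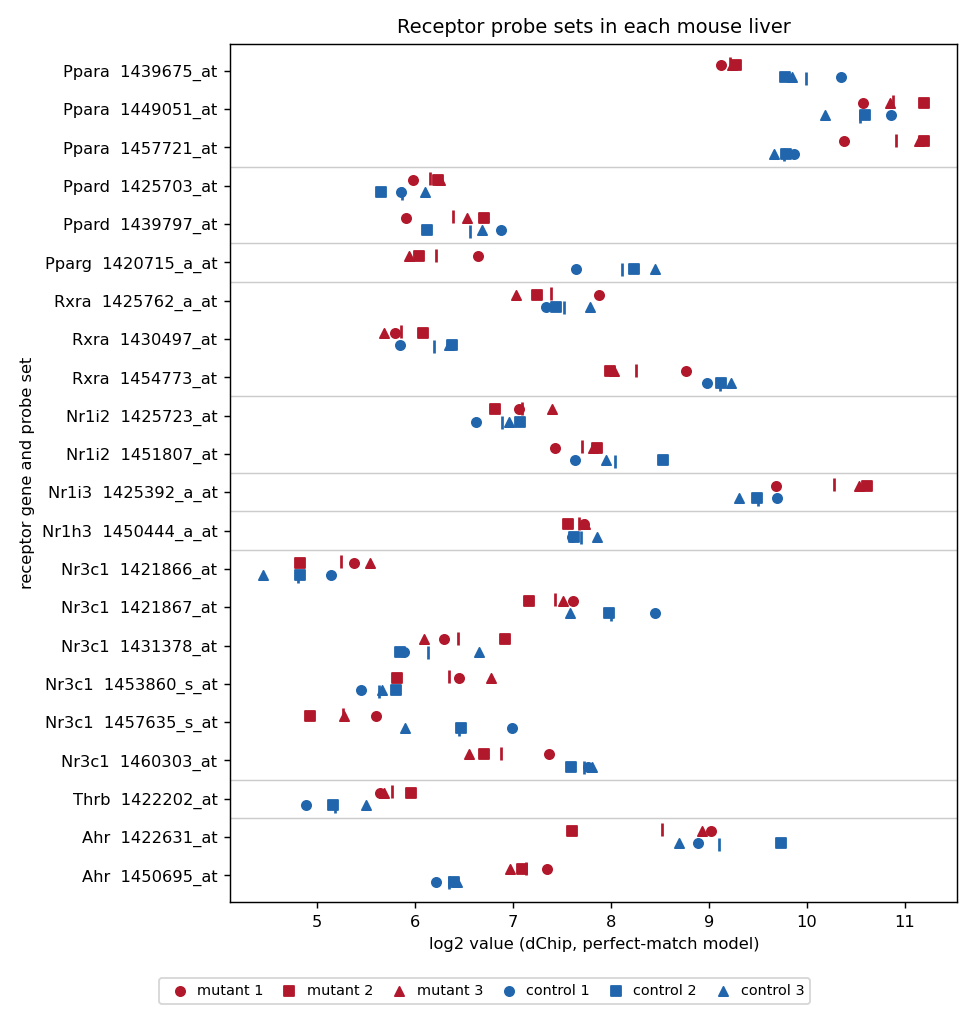
Log2 intensity of every probe set of the 10 receptor genes in each mouse, with mutants in red, controls in blue, a marker shape for each replicate and a tick at each group mean. The Pparg mutants sit between 5.94 and 6.65, below all controls at 7.64 to 8.45, whereas 13 of the 22 probe sets overlap between the groups.

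Pparg, which is best known for driving fat storage in adipocytes and is low in normal hepatocytes, was read by a single probe set, 1420715_a_at; the suffix _a_at means that its oligonucleotides match alternative transcripts of 1 gene. Its level was 6.65, 6.04 and 5.94 in mutants 1, 2 and 3, and 7.64, 8.24 and 8.45 in controls 1, 2 and 3. The lowest control stood 1.00 above the highest mutant, and mutant 3 and its concurrent control, control 1, read 5.94 and 7.64. Pparg readings went down to percentile 42.5 of an array. Those in the mutants may not be above background, so 3.73-fold is the ratio of the readings. The group means were 6.21 ± 0.38 and 8.11 ± 0.42 (SD, n = 3 each), so that Pparg fell by 1.90 ± 0.29 log2 units (SE), with a 95% interval of -2.58 to -1.22 and a limma adjusted p of 0.0345. By size it was the 72nd largest fall among the called probe sets and the 153rd among all probe sets. The fall was 2.06 after centring (limma adjusted p = 0.0474) and 1.93 after quantile normalization (limma adjusted p = 0.0405). It stayed called without mutant 1, but without any other single mouse the difference, -1.73 to -2.13, had a limma adjusted p of 0.0847 to 0.168, and with the replicate number as a block the adjusted p was 0.186. Of the 4 measured adipocyte markers of 6 listed, 0 were called and none had a value of 0. Their summed level is the list's median of values relative to each gene's mean over the 6 mice. It ran from 0.13 to 0.28 in the mutants and from -0.53 to -0.042 in the controls, higher in the group where Pparg was lower. The median difference of these markers was 0.55, or 0.39 after centring, beside 0.17 over all probe sets.

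Ppara, the fatty acid sensor that drives fat oxidation and ketone production in the fasting liver, gave opposite readings on its probe sets. On 1457721_at it was 10.38, 11.20 and 11.14 in the mutants and 9.87, 9.78 and 9.66 in the controls. All mutants lay above all controls, with mutants 2 and 3 farthest from them, and the difference of 1.14 ± 0.26 (SE, n = 3 per group; 95% interval 0.53 to 1.74), 2.20-fold, had a limma adjusted p of 0.0616, the smallest among receptor probe sets that were not called. On 1439675_at the order was turned: 9.12, 9.28 and 9.24 in the mutants, 10.35, 9.77 and 9.85 in the controls, a difference of -0.78 (95% interval -1.29 to -0.27, limma adjusted p = 0.0871). The groups were again apart, now with all mutants below. On 1449051_at, where mutants read 10.58, 11.20 and 10.85 and controls 10.86, 10.60 and 10.18, the groups overlapped (0.33, 95% interval -0.27 to 0.93, limma adjusted p = 0.469). The difference on 1457721_at was called without mutant 1 (1.40, limma adjusted p = 0.0138), with age as a covariate (1.12, limma adjusted p = 0.0479) and among bright probe sets alone (limma adjusted p = 0.0354), and the difference on 1439675_at was called under none of the alternatives tried. No single direction can be given for Ppara.

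Ppard, the most widely expressed of the PPARs, did not separate the groups. On 1425703_at it was 5.98, 6.24 and 6.26 in the mutants and 5.86, 5.65 and 6.10 in the controls (0.29, 95% interval -0.19 to 0.77, limma adjusted p = 0.429). On 1439797_at it was 5.91, 6.71 and 6.53 against 6.88, 6.12 and 6.68 (-0.18, 95% interval -0.86 to 0.51, limma adjusted p = 0.752).

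The genes that PPARA switches on had a lower median than the array as a whole. Lists are counted on the brightest probe set of each gene, and calls on other probe sets are named beside them. The unadjusted counts of this and every later receptor list stand beside 25.2% of all probe sets, both directions together. A share by direction was not computed. Over all lists 46 of 140 genes passed an unadjusted p under 0.05. Among bright probe sets alone 43 of 122 list genes passed it, beside 7850 of 22520 probe sets. Of 25 listed targets 21 were measured, and 0 were called on the brightest probe set, against 1.73% of genes higher and 1.04% lower. On any probe set 3 of the 21 were called lower and 0 higher, against 1.62% and 2.34% of all genes: Cpt2, Vnn1 and Decr1. At an unadjusted p under 0.05, 10 lay lower and 1 higher, and the median difference was -0.51, beside 0.17 over the brightest probe sets of all genes (-0.67 after centring, -0.36 after quantile normalization). The list's median of values relative to each gene's mean over the 6 mice was -0.14, 0.016 and -0.45 in the mutants and 0.11, 0.43 and 0.47 in the controls, with no overlap. A lower median was not particular to PPARA targets. The oxidative phosphorylation subunits had a median difference of -0.95, with 13 of 23 genes lower at an unadjusted p under 0.05 (limma), and the hepatocyte markers one of -0.22. Acadl, the long-chain acyl-CoA dehydrogenase, was 9.44, 8.36 and 7.96 in the mutants and 10.27, 10.44 and 10.54 in the controls (-1.83, limma adjusted p = 0.0513), although a second probe set of it gave -0.059. Cpt2, which hands acyl groups back to CoA inside the mitochondrion, differed by -1.41 on its brightest probe set (limma adjusted p = 0.0638) and fell on 1447820_x_at, from 7.97, 7.77 and 7.82 in the controls to 6.38, 5.24 and 5.27 in the mutants (-2.23, limma adjusted p = 0.0345). Every mutant lay below every control on both. Decr1, which readies unsaturated fatty acids for oxidation, fell on 1449443_at (-1.37, limma adjusted p = 0.0345; brightest probe set -0.88), and Vnn1, a pantetheinase, fell on 1447845_s_at (-1.73, limma adjusted p = 0.0464; brightest probe set -1.07). Pdk4, which holds pyruvate out of oxidation during fasting, differed by -1.63 on its only probe set (limma adjusted p = 0.0639). Cpt1a, which admits fatty acids to the mitochondrion, differed by 0.089 with overlapping groups on its brightest probe set. Its other probe sets gave -0.45 with overlapping groups and -1.01 with all mutants below all controls (limma adjusted p = 0.254 for the latter). Angptl4, a secreted inhibitor of lipoprotein lipase, was the gene at the other end, with 0.81 (limma adjusted p = 0.173), while Cyp4a14, a fatty acid hydroxylase often used as a PPARA readout, and Fgf21, a fasting hormone, differed by 0.13 and 0.091 with overlapping groups. Without mutant 1, 6 of the 21 genes were called, where 3840 of all 45037 probe sets were called. Among bright probe sets alone 6 of these genes were called, where 3050 of 22520 probe sets were called.

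Targets of PPARG and PPARD showed no common direction. Of 10 listed genes 8 were measured and 0 were called; before adjustment 1 gene passed higher and 2 passed lower at the same threshold, with 4 positive and a median of 0.032 (-0.13 after centring). Plin4, a coat protein of lipid droplets, was 7.62, 9.39 and 8.97 in the mutants and 6.09, 7.51 and 6.07 in the controls. The difference was 2.10 (limma adjusted p = 0.0738), higher in the group with less Pparg. Fabp4, which is also among the adipocyte markers above, gave 0.84 with overlapping groups on its brightest probe set (limma adjusted p = 0.214). Its other probe sets gave 0.81, 0.61 and 0.68 with all mutants above all controls. Cd36, a fatty acid transporter, was lower in all mutants than in all controls (-0.85, limma adjusted p = 0.159), and its other probe sets gave -0.72 and -1.05.

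Rxra, the common partner, had 1 of 3 probe sets on which the groups were apart. On 1454773_at it was 8.76, 7.99 and 8.03 in the mutants and 8.98, 9.13 and 9.22 in the controls. All mutants lay below all controls, with mutant 1 nearest to them, and the difference was -0.85 (95% interval -1.45 to -0.26, limma adjusted p = 0.0982; without mutant 1 -1.10, limma adjusted p = 0.0261). On 1425762_a_at the levels were 7.88, 7.25 and 7.03 against 7.33, 7.44 and 7.79 (-0.13, limma adjusted p = 0.801), and on 1430497_at 5.79, 6.09 and 5.69 against 5.85, 6.38 and 6.35 (-0.34, limma adjusted p = 0.402). Both sets overlapped, and the sign of the first turned to 0.045 without mutant 3. The other retinoid X receptors, Rxrb and Rxrg, differed by 0.30 (limma adjusted p = 0.348) and -0.040 (limma adjusted p = 0.937).

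**Figure D2:**
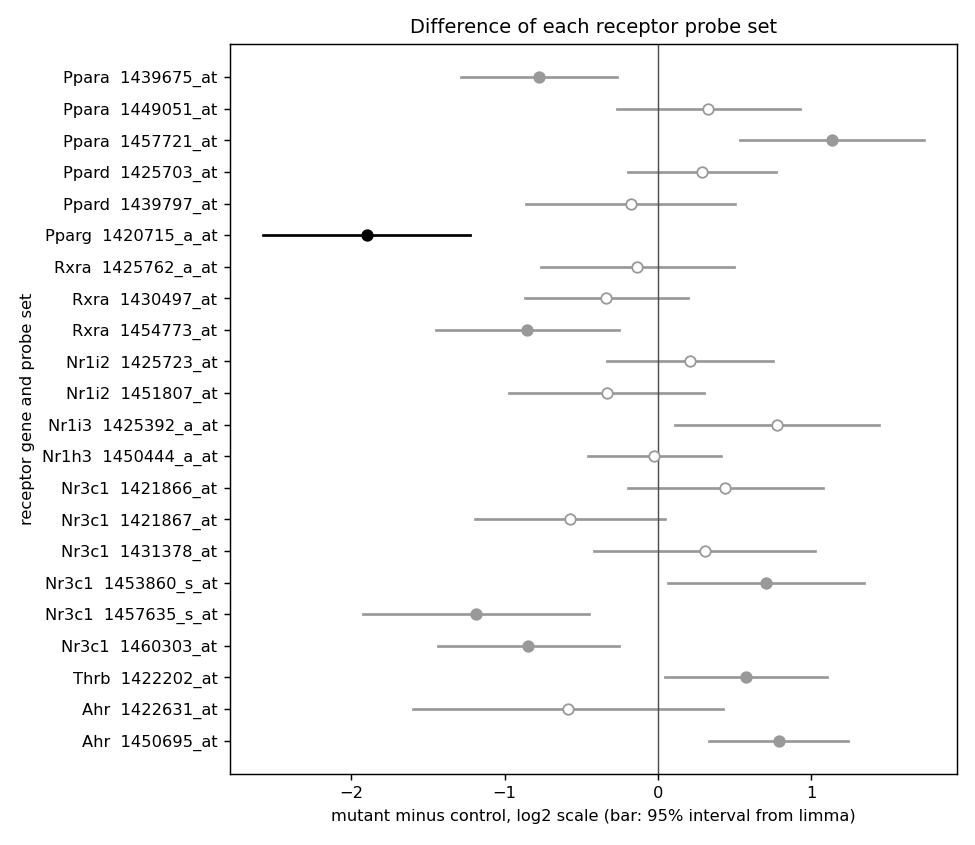
Difference between mutants and controls in log2 intensity for each receptor probe set, with its 95% limma interval; black marks the called probe set, filled symbols those whose groups did not overlap and open symbols those whose groups did. Pparg stands alone at -1.90, and Ppara and Nr3c1 each have probe sets on both sides of 0 with groups that do not overlap.

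Nr1i3, the constitutive androstane receptor that raises drug-metabolizing enzymes, was 9.68, 10.61 and 10.54 in the mutants and 9.70, 9.49 and 9.31 in the controls on its single probe set, 1425392_a_at. Mutants 2 and 3 lay above every control and mutant 1 lay within the control range. The difference was 0.78 (SE 0.29, 95% interval 0.11 to 1.45), 1.71-fold, with a limma adjusted p of 0.148; without mutant 1 it was 1.08 (limma adjusted p = 0.0344). Nr1i2, the pregnane X receptor, overlapped on both probe sets. It was 7.06, 6.82 and 7.40 against 6.62, 7.08 and 6.95 on 1425723_at (0.21, 95% interval -0.33 to 0.75, limma adjusted p = 0.619), and 7.43, 7.86 and 7.82 against 7.63, 8.54 and 7.94 on 1451807_at (-0.33, 95% interval -0.97 to 0.30, limma adjusted p = 0.494). The signs differed, and neither difference exceeded the spread between mice.

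Of 23 listed targets of CAR and PXR 18 were measured, and 1 was called higher and 0 lower, against 1.73% and 1.04% of all genes; 3 were higher and 2 lower at an unadjusted p under 0.05, and the median was 0.035 (-0.13 after centring). Abcb1a, an efflux pump that carries drugs out of cells, was 6.56, 6.91 and 6.58 in the mutants and 4.51, 4.86 and 4.42 in the controls. It rose by 2.09 ± 0.22 log2 units (SE, n = 3 per group), 4.24-fold, with all mutants above all controls (limma adjusted p = 0.0263), and a second probe set of the gene gave -0.34. The lowest control reading lay at percentile 9.66 of its array and may not be above background, so 4.24 is the ratio of the readings. Without any single mouse other than mutant 1 its limma adjusted p was 0.0624 to 0.149. Cyp2b10, the usual readout of CAR, was 7.23, 6.66 and 6.08 in the mutants and 6.62, 7.15 and 6.04 in the controls, a difference of 0.050 with a 95% interval of -0.82 to 0.92. Cyp3a11, the usual readout of PXR, was between 13.56 and 13.73 in all 6 mice, a difference of 0.020 with a 95% interval of -0.40 to 0.43, but at percentiles above 99.9 of every array it may be too bright to show a difference. Both groups overlapped for each, and the interval for Cyp2b10 is wide on the scale of the receptor differences. In mutants 2 and 3, where Nr1i3 itself read highest, Cyp2b10 was 6.66 and 6.08, within the control range.

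Nr1h3, the oxysterol sensor that raises cholesterol export and fat synthesis, was the closest to no difference. It was 7.73, 7.56 and 7.74 in the mutants and 7.61, 7.62 and 7.86 in the controls on 1450444_a_at. The groups overlapped, the difference was -0.022 (95% interval -0.46 to 0.41, limma adjusted p = 0.956), and its sign turned to 0.044 after quantile normalization and to 0.035 and 0.059 without mutant 2 and without control 3. All 13 listed LXR targets were measured and 0 were called; before adjustment 0 passed higher and 2 lower at the same threshold, with 7 positive and a median of 0.025 (-0.14 after centring). Abcg8, which with Abcg5 pumps cholesterol into bile, was 8.14, 8.83 and 7.39 in the mutants and 9.27, 9.20 and 9.15 in the controls (-1.09, limma adjusted p = 0.11), while Abcg5 differed by -0.057 with overlapping groups. Abca1, the cholesterol exporter, differed by 0.074, and Srebf1, the regulator of fatty acid synthesis, by -0.30 (limma adjusted p = 0.439). These are the brightest probe sets. On another probe set Pltp gave -2.34 with all mutants below all controls (limma adjusted p = 0.0541). Abcg1 gave 0.75 on another, with all mutants above all controls (limma adjusted p = 0.0833). The remaining other probe sets of this list overlapped between the groups.

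Nr3c1, the receptor for corticosterone, had 6 probe sets and no common direction among them. On 1457635_s_at it was 5.60, 4.93 and 5.27 in the mutants and 6.99, 6.46 and 5.90 in the controls, with all mutants below (-1.18, 95% interval -1.92 to -0.45, limma adjusted p = 0.0794; with age as a covariate -1.23, limma adjusted p = 0.0485). On 1460303_at it was 7.37, 6.70 and 6.55 against 7.77, 7.60 and 7.81, again with all mutants below (-0.85, 95% interval -1.44 to -0.26, limma adjusted p = 0.0979; without mutant 1 -1.09, limma adjusted p = 0.0273). On 1453860_s_at, in contrast, it was 6.45, 5.81 and 6.77 against 5.45, 5.80 and 5.66 (0.71, 95% interval 0.07 to 1.35, limma adjusted p = 0.163). Here all mutants lay above all controls, but mutant 2 cleared control 2 by only 0.010. The remaining probe sets overlapped: 1421867_at gave -0.58, 1431378_at 0.30 and 1421866_at 0.44, with limma adjusted p of 0.227, 0.588 and 0.359. The suffix _s_at means that some oligonucleotides can match transcripts of more than 1 gene, so those readings are less certain.

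Targets of the glucocorticoid receptor were measured for all 15 listed genes, and 0 were called; 3 were higher and 0 lower at an unadjusted p under 0.05, 9 were positive and the median was 0.12 (-0.041 after centring). Per1, a clock gene with a glucocorticoid response, was 8.62, 9.26 and 7.71 in the mutants and 6.49, 7.66 and 6.65 in the controls. All mutants lay above all controls, mutant 3 by 0.047, and the difference was 1.60 (95% interval 0.55 to 2.64, limma adjusted p = 0.0877). Tat, a classical induced enzyme of amino acid breakdown, and Fkbp5, a chaperone that dampens the receptor, differed by 0.12 and 0.034 with overlapping groups. These are the brightest probe sets. Other probe sets of Fkbp5 gave 0.52 with all mutants above all controls (limma adjusted p = 0.163) and 0.66 with overlapping groups (limma adjusted p = 0.194). Klf9, which is also among the thyroid hormone receptor targets below, differed by -0.24 with overlapping groups on its brightest probe set. Other probe sets of Klf9 gave -1.16, -1.26 and -0.68 with all mutants below all controls (limma adjusted p = 0.121, 0.0569 and 0.119). The remaining probe sets of Klf9 gave 0.21, 0.40 and 0.15 with overlapping groups.

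Thrb, the main thyroid hormone receptor of hepatocytes, was 5.64, 5.96 and 5.68 in the mutants and 4.89, 5.16 and 5.50 in the controls on 1422202_at. All mutants lay above all controls (0.58, 95% interval 0.05 to 1.11, limma adjusted p = 0.165), but the probe set was dim, between the percentiles 21.4 and 41.3 of the arrays. The difference was 0.42 after centring and 0.39 after quantile normalization. Of 10 listed targets 8 were measured and 0 were called; 1 was higher and 0 lower at an unadjusted p under 0.05, 2 were positive and the median was -0.12. Hr, a corepressor that thyroid hormone induces, was 5.97, 6.90 and 6.30 against 5.09, 5.07 and 5.80 (1.07, limma adjusted p = 0.0939), with a second probe set at 0.11. Dio1, the deiodinase that converts thyroid hormone in liver, differed by -0.19 with overlapping groups. Thrsp, a lipogenic target, differed by 0.30 with overlapping groups on its brightest probe set but rose on 1444166_at, from 6.39, 6.43 and 6.76 in the controls to 7.86, 7.75 and 8.42 in the mutants (1.48, limma adjusted p = 0.0397).

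Ahr gave opposite signs on 2 probe sets annotated to the same accession. On 1450695_at it was 7.34, 7.09 and 6.97 in the mutants and 6.22, 6.40 and 6.43 in the controls. All mutants lay above all controls, by at least 0.55, and the difference was 0.79 (95% interval 0.33 to 1.24, limma adjusted p = 0.0698; among bright probe sets alone 0.0382). On 1422631_at it was 9.02, 7.61 and 8.93 against 8.89, 9.73 and 8.69 (-0.59, 95% interval -1.60 to 0.42, limma adjusted p = 0.445). Mutant 2 stood apart there and the groups overlapped. Of 9 listed targets 8 were measured and 0 were called on the brightest probe set; 1 was higher and 0 lower at an unadjusted p under 0.05, and the median was 0.059 (-0.10 after centring). That 1 gene was Aldh3a1, an aldehyde dehydrogenase, at 6.05, 5.98 and 6.08 against 4.97, 5.52 and 5.58 (0.68, limma adjusted p = 0.117). Tiparp, an ADP-ribosylating enzyme that limits Ahr, rose on 1452160_at, from 5.01, 4.65 and 4.11 to 5.90, 6.32 and 7.04 (1.83, limma adjusted p = 0.0494; brightest probe set 0.32). The remaining probe set of Tiparp gave -0.37 with all mutants below all controls (limma adjusted p = 0.303). On 1452160_at the lowest control reading lay at percentile 6.45 of its array and may not be above background. Cyp1a1, the most sensitive target, was between 4.58 and 5.51 in all 6 mice and differed by -0.16, and Cyp1a2, which liver expresses without inducer, differed by -0.12 (95% interval -0.63 to 0.39).

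Partners, chaperones and coregulators of the receptors included 1 gene called on its brightest probe set and 2 more called on another. These 3 of 17 measured genes, which had 58 probe sets, stand beside 2.34% of all genes called higher on any probe set. Of 22 listed 17 were measured, and the 1 call was higher, against 1.73% of all genes; 3 were higher and 3 lower at an unadjusted p under 0.05, and the median was 0.075 (-0.087 after centring). Ppargc1b, which encodes PGC-1beta, a coactivator of several nuclear receptors and of mitochondrial and lipogenic genes, was 10.73, 11.31 and 10.88 in the mutants and 9.44, 9.35 and 9.07 in the controls. It rose by 1.68 ± 0.23 log2 units (SE, n = 3 per group), 3.21-fold, on its only probe set, with all mutants above all controls (limma adjusted p = 0.0332); without any single mouse other than mutant 1 the limma adjusted p was 0.0812 to 0.161. Its relative Ppargc1a differed by 0.40 on its brightest probe set (limma adjusted p = 0.58), and its other probe sets gave differences of -0.64, -0.46, -0.45 and -1.12. Among the coactivators, Ncoa1 rose on 1443397_at (1.87, limma adjusted p = 0.0263; brightest probe set 0.86) and Med1, a subunit of the Mediator complex, rose on 1421906_at (2.62, limma adjusted p = 0.0391; brightest probe set 0.41), with all mutants above all controls on both probe sets. The remaining probe set of Ncoa1 gave -0.17 with overlapping groups. Med1 gave -0.58 on another probe set, with all mutants below all controls (limma adjusted p = 0.134). The remaining probe sets of Med1 gave -0.57, 0.046, 0.16 and 0.38 with overlapping groups. Arnt, the partner of Ahr, differed by -0.42 (limma adjusted p = 0.334).

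The other nuclear receptors, 33 measured of 37 listed, had 0 calls on the brightest probe set, against 1.73% of all genes higher and 1.04% lower; 6 were higher and 8 lower at an unadjusted p under 0.05, 22 were positive and the median was 0.29, beside 0.17 over all genes (0.13 after centring). The gene of smallest p was Nr2c1, an orphan receptor, at 6.59, 5.84 and 6.30 in the mutants and 7.29, 7.37 and 7.01 in the controls (-0.98, limma adjusted p = 0.0709). Rora, a clock-linked orphan receptor, fell on 1436325_at (-1.28, limma adjusted p = 0.0494; brightest probe set -1.03). Over all 9 lists, 2 of 140 measured genes were called on the brightest probe set, Abcb1a and Ppargc1b, both higher, and 0 were called lower, near the background of 1.73% and 1.04%. On any of their probe sets 6 were called higher and 4 lower, against 2.34% and 1.62% of all genes. All 8 calls on another probe set held without mutant 1 and were lost without any other single mouse (limma adjusted p = 0.0621 to 0.194). After centring 4 of the 8 held, those of Cpt2, Decr1, Vnn1 and Ncoa1, and after quantile normalization 5 held, those of Cpt2, Decr1, Ncoa1, Med1 and Thrsp.

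**Figure D3:**
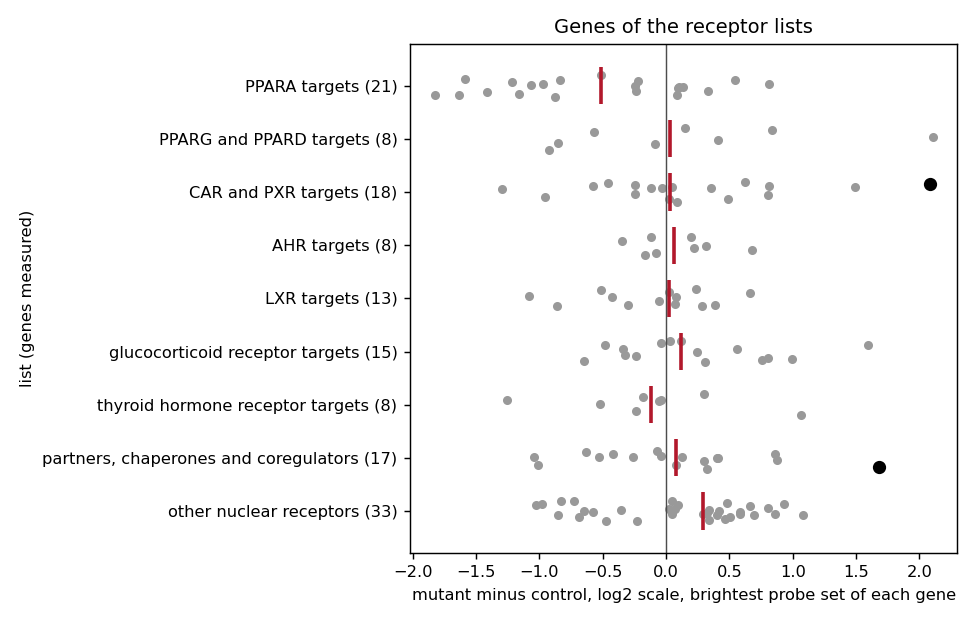
Difference between mutants and controls in log2 intensity for each measured gene of the 9 receptor lists, on the brightest probe set of the gene; black marks called genes and the red line the median of each list. The PPARA targets have their median at -0.51, the other medians lie between -0.12 and 0.29, and the called genes are Abcb1a at 2.09 and Ppargc1b at 1.68.

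Mutant 1 was nearest to the controls on some receptor probe sets and not on others. On Ppara 1457721_at, Nr1i3 1425392_a_at, Rxra 1454773_at and Nr3c1 1460303_at, mutants 2 and 3 lay close together and mutant 1 lay nearest to the controls or among them. For Pparg, too, mutant 1 was nearest to the controls. On Ahr 1450695_at and Ppara 1439675_at, in contrast, mutant 1 lay farthest from the controls, and on Nr3c1 1453860_s_at mutant 2 lay nearest. The Gapdh 3′ minus 5′ difference also placed mutant 1 nearest to the controls, and the part of that difference in the receptor values was not tested. Of the 6 receptors with more than 1 probe set, 5 had differences of both signs among their probe sets, and Ppara and Nr3c1 each had a probe set with all mutants above all controls and a probe set with all mutants below.

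Markers of other liver cells moved with the groups in part. Hepatocyte markers had 0 of 10 measured genes called and 2 positive differences, with a median of -0.22 and a list level of 0.096, -0.21 and -0.29 in mutants 1, 2 and 3 and 0.12, 0.076 and 0.19 in the controls. Of 12 sinusoidal endothelial markers, Stab2 (1.82, limma adjusted p = 0.0375) and Stab1 (1.39, limma adjusted p = 0.0499) rose, with a list level of 0.060 to 0.66 in the mutants and -0.49 to -0.25 in the controls; after centring neither was called (limma adjusted p = 0.0571 and 0.071), and without single mice Stab1 was called in no fit (limma adjusted p = 0.0524 to 0.192) and Stab2 only without mutant 1 (0.086 to 0.168 otherwise). Of the 12 Kupffer cell and macrophage markers 0 were called, and their list level was -0.039 to 0.64 in the mutants and -0.66 to 0.026 in the controls. Of 4 erythroid markers measured, Hbb-b2 rose (1.77, limma adjusted p = 0.0391; after centring 0.0601; without any single mouse but mutant 1 0.0833 to 0.168), with a second probe set at 0.14 and a list level of -0.20 to 0.69 against -0.51 to 0.0072. Bile duct markers had 0 of 6 measured genes called and 6 positive, with a list level of 0.058 to 0.38 in the mutants and -0.35 to -0.093 in the controls, and lymphocyte markers had 0 of 9 called, with 0.0018 to 0.17 against -0.22 to -0.16; neither list level overlapped between the groups. These list levels were not centred, while the median difference over all probe sets was 0.17 and 21.2% of all probe sets had all mutants above. Median differences were 0.467 for the bile duct list, 0.33 for the lymphocyte list and 0.61 for the endothelial list. After centring they were 0.305, 0.17 and 0.45. Stellate cell markers had 0 of 12 called, with -0.20 to 0.18 against -0.21 to 0.15. None of the 69 measured marker genes had a value of 0, and the part of these cells in the receptor values was not tested.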

How the data were processed

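Total RNA from liver of 6 mice was hybridized to Affymetrix arrays, 1 array per mouse, each taken as a replicate. Per the methods, the authors normalized and summarized the probe-level data in dChip with its model of perfect-match probes alone, and deposited 1 log2 intensity per probe set and array; its version and baseline array: not given in the sources used here. The methods name an array of C. elegans, whereas the probe sets carry names from a mouse design. Because the arrays were scaled to each other before deposit, a shift shared by most transcripts would be reduced in these values. The deposited values ran from 0 to 14.6, with 40 values of exactly 0, of which 0 belonged to the receptors.

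Of 45101 probe sets, 64 controls were left out. GEO's platform annotation, which can be old, gave 1 symbol for 34945 of the rest, several for 932 and none for 9160. The mutant and control means were fitted in R 4.3.3 with limma 3.58.1 (lmFit, then eBayes) without covariates, with Benjamini-Hochberg adjustment over all 45037 probe sets; figures were drawn with matplotlib 3.10.9. For single values, a two-sided exact permutation test over the 20 assignments was added. The script was checked on simulated data. Genes of the lists were read on the probe set with the highest mean; 163 genes were listed in 9 receptor lists, and 140 were measured. A list level is the median over its genes of each mouse's value minus the gene's mean over all 6 mice.

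The genes and lists were chosen with earlier results of these data known. The rule for named genes took every receptor probe set, Pdss2, in each receptor list up to 4 called genes of smallest p or the gene of smallest p where none was called, and called cell markers; other target genes were named after their values were seen. Alternatives were quantile normalization, centring on array medians, bright probe sets alone, trended and robust eBayes, the replicate number as a block, age as a covariate, the mean of a gene's probe sets, and leaving out each mouse. No probe or protein sequence was used here.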

Additional observations from a re-analysis of the deposited data

How the results depend on the processing

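Of 294 comparisons of receptor and Pdss2 probe sets under the alternatives, 274 kept their direction and their side of the threshold, 8 became called, 6 lost the call (all of them Pparg) and 6 changed sign. The changed signs belonged to probe sets with differences near 0: Nr1h3 1450444_a_at, at 0.044 after quantile normalization and -0.067 to 0.059 when 1 mouse was left out, Ppard 1439797_at, at -0.40 to 0.060, and Rxra 1425762_a_at, at -0.38 to 0.045. The number of calls depended on the processing far more than the differences did. Over all probe sets limma called 897, against 689 after quantile normalization, 300 after centring, 3050 of the bright probe sets alone, 1413 with trended and robust eBayes, 2515 with age as a covariate and 0 to 3840 without 1 mouse, with the highest number without mutant 1 and 3 without control 1. Receptor probe sets called numbered 1, against 3 among bright probe sets, 3 with age and 0 to 5 without 1 mouse, the 5 again without mutant 1. Genes of the receptor lists called numbered 2, against 14 among bright probe sets, 3 with trended and robust eBayes, 7 with age, 3 by the mean of a gene's probe sets and 0 to 21 without 1 mouse. Where leaving out 1 mouse gave 0 calls, 7526 to 11749 probe sets still had an unadjusted p under 0.05. The bright probe sets numbered 22520 of 45037, and held 16 of the 22 receptor probe sets and 122 of the 140 list genes. The cause of these changes was not tested.

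With the replicate block limma called 0 of all probe sets (7935 at an unadjusted p under 0.05), 0 receptor probe sets (7 unadjusted) and 0 list genes (38 unadjusted). Deviations from the group means correlated at 0.061, -0.50 and -0.56 between mice of the same number. This gave no sign that the numbers pair the mice. Such deviations cancel out within each group, so the correlations are tied to each other and cannot exclude shared handling of same-numbered mice. Mutant 3 and its concurrent control, control 1, correlated at 0.45. That value does not mark them out from mice with no such label (mutant 2 with control 3 0.62, mutant 3 with control 2 0.40). Without detection calls, the signal over background of dim probe sets such as those of Thrb, Ppard and Abcb1a is unknown. The same holds for Tiparp 1452160_at and Ncoa1 1443397_at, whose lowest readings lay at percentiles 6.45 and 6.93.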
